A study of Mus musculus with 11 samples.

Results

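The 9 genes described here are lineage factors and markers of oligodendrocyte precursors: Olig1, Olig2, Sox10, Nkx2-2, Cspg4, Gpr17, Neu4, Bcas1 and Lhfpl3. They were taken by symbol from the count table, which held 27687 genes, and all 9 were found and passed the filter on low counts that 16241 genes passed. RNA was sequenced from 11 mouse high-grade gliomas, 9 with prolonged Ezh2 knockdown and 2 controls without it. All of them grew from glioma initiating cells placed in the brains of NOD-SCID mice, which lack mature lymphocytes but keep their own glia, neurons, vessels and myeloid cells. The cells were neural stem cells of the subventricular zone (SVZ) taken at an age of 7 days from mice that were compound conditional for p53;Ink4a/Arf;Krasv12;LucR, recombined in culture with lentiviral CMV-Cre. Cells of both groups carried 1 hairpin construct, FH1-tUTG-shEzh2, which doxycycline switches on, and were sorted for GFP. Doxycycline was given in drinking water at 2 mg/ml with 1% sucrose. The sample labels give that treatment for controls too, whereas the design text has mice with and without it, so effects of doxycycline itself and of the hairpin cannot be told apart.

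The libraries held 11209233 to 18638382 counts. Levels are given as CPM, counts scaled to a common library size and composition, and 3 counts correspond to 0.162 to 0.273 CPM. Ezh2, the methyltransferase of Polycomb repressive complex 2, ran from 7.27 to 30.4 CPM in knockdown tumours, against 45.3 and 52.7 CPM in controls. Reads of tumour and host cells are both mouse and stand in 1 count per gene. In bulk tissue, fewer cells of a type and less RNA per cell cannot be told apart.

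Oligodendrocyte precursors arise from neural stem cells under the basic helix-loop-helix factors OLIG2 and OLIG1, whose genes lie side by side. OLIG2 acts upstream of SOX10, an HMG-box factor that then drives differentiation and myelin genes, with NKX2-2, a homeodomain factor, as a further promoter of maturation. As cells commit to differentiate they make GPR17, a G protein-coupled receptor, and later BCAS1. Gliomas of several kinds keep precursor features, and OLIG2 is widely used as a marker of them.

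The members split. Olig1 and Olig2 were lower in each knockdown tumour than in either control, by 5.16-fold and 6.53-fold. Gpr17 and Neu4 were higher by 20.9-fold and 31.3-fold, and Sox10, at 13.2-fold higher, missed the threshold for a call. Nkx2-2, Cspg4, Bcas1 and Lhfpl3 did not pass the test. Most knockdown tumours thus held all 5 at low to moderate levels, while the controls held abundant Olig1 and Olig2 RNA with almost no Sox10, Gpr17 or Neu4 RNA. At an adjusted p under 0.05 (edgeR quasi-likelihood test, Benjamini-Hochberg over all tested genes) 2 members rose and 2 fell. Among all tested genes 23.3% were called, 10.3% higher and 13.0% lower. The groups did not overlap for Olig1, Olig2 and Neu4, as in 27.2% of all tested genes. Without control 1 only 2 members, Olig1 and Olig2, were called (7.61% of all tested genes), and without control 2 none was (10.4%; 3 members had an unadjusted edgeR p under 0.05).

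**Figure D1:**
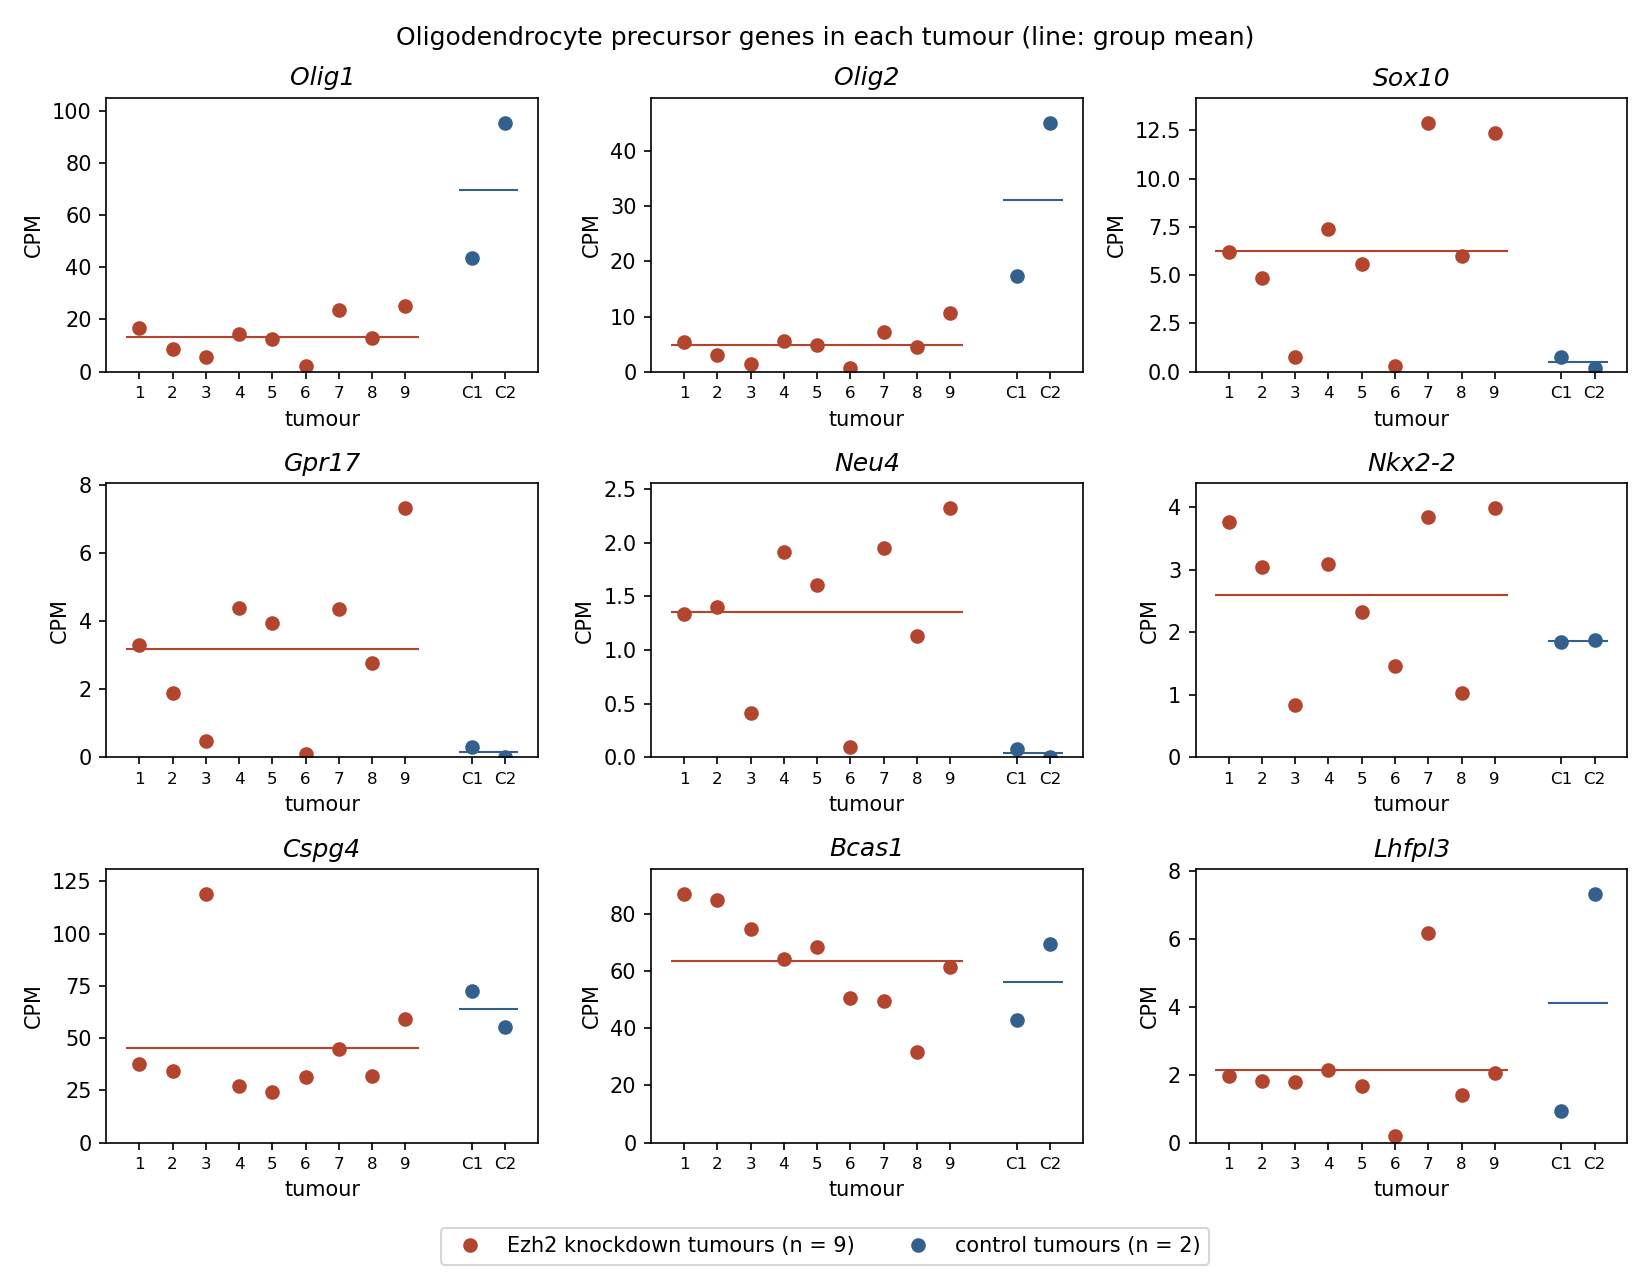
CPM of each gene by tumour, with knockdown tumours 1 to 9 left (red), controls C1 and C2 right (blue), and lines at group means. Olig1 and Olig2 are lower in all 9 knockdown tumours. Sox10, Gpr17 and Neu4 are near 0 in knockdown 6 and in both controls, and low in knockdown 3.

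Olig2 (ENSMUSG00000039830, mm9 chromosome 16, 91225795 to 91228922) had its lowest value of 0.727 CPM in knockdown 6, a median of 4.83 CPM and its highest value of 10.6 CPM in knockdown 9. The controls had 17.3 and 45.2 CPM. No knockdown tumour reached the lower control. The log2 fold change was -2.71 ± 0.60 (SE; edgeR, adjusted p = 0.0085), and the exact two-sided permutation p, over the 55 ways to choose 2 of the 11 libraries, was 0.018, the smallest these group sizes allow. Olig1 (ENSMUSG00000046160, mm9 chromosome 16, 91270014 to 91272184) followed the same order, with 2.00, 12.8 and 25.1 CPM as lowest, median and highest knockdown values. Its control levels were 43.7 and 95.3 CPM. Olig1 fell by 2.37 ± 0.56 on the log2 scale (SE; edgeR, adjusted p = 0.012; exact permutation p = 0.018). In 13.8% of all tested genes the 9 knockdown libraries likewise lay below both controls. Both calls depended on control 2. Without it the log2 fold changes were -1.86 for Olig2 and -1.70 for Olig1 (edgeR, adjusted p = 0.16 and 0.17), while without control 1 they were -3.24 and -2.83 (adjusted p = 0.021 and 0.031).

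Sox10 (ENSMUSG00000033006, mm9 chromosome 15, 78985343 to 78994920) ranged from 0.273 CPM in knockdown 6 over a median of 5.98 CPM to 12.9 CPM in knockdown 7. The controls had 0.769 and 0.188 CPM, which is 10 and 3 counts. Knockdown 3, at 0.759 CPM, and knockdown 6 lay between the controls, and the other 7 knockdown tumours lay above both. The log2 fold change was 3.73 ± 1.29 (SE; edgeR, adjusted p = 0.055), with an exact permutation p of 0.055. From summed counts, 855 in knockdown and 13 in control libraries, the ratio of levels was 14.6 (exact binomial interval at 95%, 8.49 to 27.5, which covers counting error only). Leaving out knockdown 3 or knockdown 6 brought Sox10 past the threshold at log2 fold changes of 3.88 and 3.89 (edgeR, adjusted p = 0.030 and 0.020).

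Nkx2-2 (ENSMUSG00000027434, mm9 chromosome 2, 147003282 to 147019979) ran from 0.828 to 3.98 CPM in the knockdown tumours, with a median of 3.04 CPM. The controls had 1.85 and 1.88 CPM, inside that range. Its log2 fold change was 0.47 ± 0.57 (SE; edgeR, adjusted p = 0.57). A noncoding antisense model, Nkx2-2as, and another model overlap it, both with mean levels under 0.3 CPM in either group.

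Windows before the transcription start were available from RefSeq (GRCm38.p6) for Olig2, Neu4, Nkx2-2, Cspg4 and Lhfpl3. Those of a member that fell, one that rose and one that did not pass the test are shown to compare their base composition. They span chr16:91225300-91225549 (plus strand), chr1:94020243-94020492 (plus) and chr2:147186403-147186652 (minus), with each CG dinucleotide in capitals.
Olig2: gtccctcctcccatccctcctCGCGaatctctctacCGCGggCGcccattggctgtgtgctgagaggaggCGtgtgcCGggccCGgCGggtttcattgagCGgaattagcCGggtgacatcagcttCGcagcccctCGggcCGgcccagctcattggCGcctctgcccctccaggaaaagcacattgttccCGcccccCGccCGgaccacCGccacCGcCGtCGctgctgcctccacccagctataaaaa
Neu4: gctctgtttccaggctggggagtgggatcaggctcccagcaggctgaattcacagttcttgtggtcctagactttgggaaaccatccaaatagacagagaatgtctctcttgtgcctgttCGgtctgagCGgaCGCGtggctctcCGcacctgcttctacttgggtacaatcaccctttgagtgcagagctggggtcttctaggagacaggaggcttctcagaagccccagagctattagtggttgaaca
Nkx2-2: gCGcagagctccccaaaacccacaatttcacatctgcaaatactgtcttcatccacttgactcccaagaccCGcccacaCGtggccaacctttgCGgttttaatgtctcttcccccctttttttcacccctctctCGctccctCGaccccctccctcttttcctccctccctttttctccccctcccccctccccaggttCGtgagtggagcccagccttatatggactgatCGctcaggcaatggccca
The Olig2 window of 250 bases held 22 CG dinucleotides, a count that 14.8% of 32851 promoter windows reach. Neu4 held 5 and Nkx2-2 held 8, counts reached by 55.6% and 43.0% of windows. Lhfpl3 and Cspg4 held 11 and 12. The E-box letters CANNTG, the core recognised by helix-loop-helix factors, were in 66.2% of all windows, 1 time in the Neu4 window, 3 times in that of Nkx2-2 and 0 times in that of Olig2. The SOX-type word ACAATG, on either strand, was found 1 time in the Olig2 window and in 10.7% of all windows. These counts are descriptions of letters and not of binding.

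Gpr17, the receptor of committed precursors (ENSMUSG00000052229, mm9 chromosome 18, 32102651 to 32109290), had 0.0909 CPM in knockdown 6, a median of 3.29 CPM and 7.30 CPM in knockdown 9. Control 1 had 0.308 CPM, from 4 counts, and control 2 had 0 counts. Knockdown 6 lay below control 1 and the other 8 above it. Gpr17 rose, with a log2 fold change of 4.39 ± 1.47 (SE; edgeR, adjusted p = 0.049; exact permutation p = 0.036). From summed counts, 430 and 4, the ratio was 23.8 (exact binomial interval at 95%, 9.25 to 87.9). This call is at the edge of the threshold: it was lost when any of 7 knockdown libraries or either control was left out, without control 2 at 3.33 (edgeR, adjusted p = 0.25). Against control 2 alone the mean knockdown level was at least 16.8-fold higher, with the floor of 3 counts in that library. The gene model of Lims2, which overlaps Gpr17, did not pass the test (edgeR, adjusted p = 0.85; log2 fold change 0.14).

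Neu4, a sialidase (ENSMUSG00000034000, mm9 chromosome 1, 95917070 to 95924903), was the scarcest member. It had 0.0909 CPM in knockdown 6, a median of 1.399 CPM and 2.32 CPM in knockdown 9, against 0.0769 CPM in control 1 and 0 counts in control 2. All 9 knockdown libraries lay above both controls, as in 13.3% of all tested genes, but knockdown 6 and control 1 had 1 count each. Neu4 rose with a fitted log2 fold change of 4.97 ± 1.27 (SE; edgeR, adjusted p = 0.017; exact permutation p = 0.018). On 182 counts over the knockdown and 1 over the control libraries, the ratio was 40.4 (exact binomial interval at 95%, 7.16 to 1603). Without control 1 or control 2 the call was lost (edgeR, adjusted p = 0.074 and 0.13).

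Bcas1, which marks newly forming oligodendrocytes (ENSMUSG00000013523, mm9 chromosome 2, 170172491 to 170253345), varied least of the members among the knockdown tumours, with a coefficient of variation of 27.9%. It ran from 31.7 CPM in knockdown 8 over a median of 64.3 CPM to 87.1 CPM in knockdown 1, against 42.9 and 69.4 CPM in the controls. The groups overlapped and the log2 fold change was 0.18 ± 0.31 (SE; edgeR, adjusted p = 0.71). It reversed to -0.13 without control 1.

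Cspg4, the NG2 proteoglycan of precursors and also of pericytes (ENSMUSG00000032911, mm9 chromosome 9, 56712911 to 56747677), had 24.4 CPM in knockdown 5, a median of 34.4 CPM and 119 CPM in knockdown 3, against 72.7 and 55.2 CPM in the controls. Apart from knockdown 3 and knockdown 9, at 59.0 CPM, all knockdown tumours were below both controls. The log2 fold change was -0.49 ± 0.49 (SE; edgeR, adjusted p = 0.49). Without knockdown 3 it was -0.82 and past the threshold (adjusted p = 0.049). Of 12 pericyte markers 2 rose and 1 fell (25%, close to the 23.3% of all tested genes), with Pdgfrb, the PDGF receptor of pericytes, at 421 ± 160 CPM in knockdown and 90.3 ± 9.46 CPM in control tumours (SD, n = 9 and 2; edgeR, adjusted p = 0.0082). Abcc9, a channel subunit, rose 2.50-fold and Anpep, an aminopeptidase, fell 2.99-fold. Without control 1, 0 of them rose and 1 fell, and without control 2, 0 rose and 0 fell. The summed level of this list was 483 to 1457 CPM in knockdown tumours, against 439 and 553 CPM in controls, no marker of it was at 0, and its part in the Cspg4 values was not tested.

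Lhfpl3, a membrane protein enriched in precursors (ENSMUSG00000058361, mm9 chromosome 5, 22252011 to 22618785), ran from 0.182 CPM in knockdown 6 over a median of 1.81 CPM to 6.17 CPM in knockdown 7. The controls, at 0.923 and 7.33 CPM, lay 7.94-fold apart and enclosed 8 of the 9 knockdown tumours. Its log2 fold change of -0.95 ± 0.77 (SE; edgeR, adjusted p = 0.40) turned to 1.20 without control 2 and was -1.77 without control 1.

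**Figure D2:**
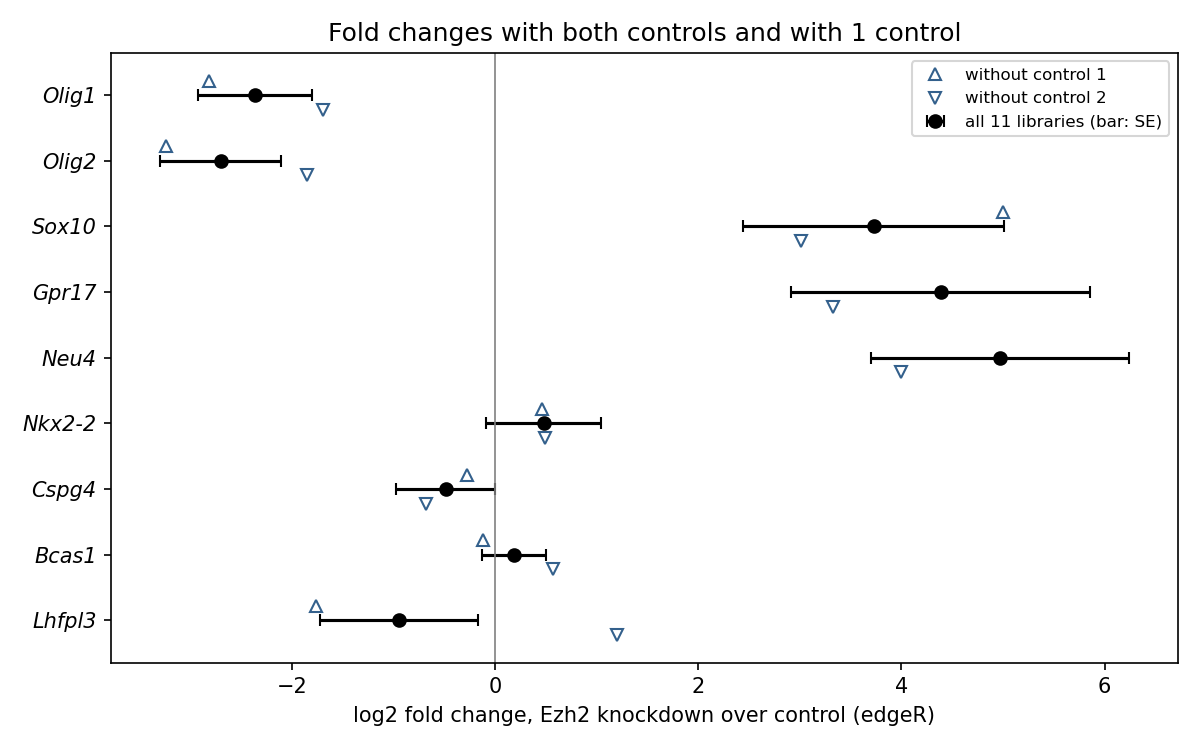
Log2 fold change of each gene, knockdown over control, from edgeR with all libraries (black, bars are SE) and with control 1 or control 2 left out (open triangles); Gpr17 and Neu4 are not drawn without control 1, since control 2 holds 0 counts and a fitted value then depends on the prior count. Olig1 and Olig2 stay below 0 and Sox10, Gpr17 and Neu4 above 0, while Lhfpl3 and Bcas1 change side.

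The controls differed from each other in Lhfpl3, Sox10, Olig2 and Olig1 far more than in Nkx2-2, with Sox10 at only 10 and 3 counts. With 1 library each there is no test, and the intervals cover counting error only. Control 2 had 2.61-fold more Olig2 (95% exact binomial interval 2.24 to 3.04) and 2.18-fold more Olig1 (1.98 to 2.41) than control 1. These gaps were larger than those of 96.5% and 96.4% of tested genes of similar level, within 1 log2 unit of mean CPM. Control 2 also had 7.94-fold more Lhfpl3 (4.38 to 15.8), a gap above that of 98.0% of such genes, and 1.62-fold more Bcas1 (1.46 to 1.79). In the other direction, Sox10 in control 2 was 0.244 of its level in control 1 (0.0432 to 0.949), and Cspg4 was 0.759 of it (0.692 to 0.833). Nkx2-2 was nearly equal, at a ratio of 1.02 (0.575 to 1.82). The gaps of Bcas1, Sox10, Cspg4 and Nkx2-2 were larger than those of 89.7%, 85.3%, 73.2% and 2.75% of tested genes of similar level. Within the knockdown group Olig2 spanned 14.5-fold, between knockdown 9 and knockdown 6, and Sox10 47.3-fold, between knockdown 7 and knockdown 6. A span over 9 tumours cannot be set against that of 2 controls, since it widens with group size. The values of knockdown 6 rest on 8 counts of Olig2 and 3 of Sox10.

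Ratios of these genes within a tumour draw on the same levels, and so add no independent difference between the groups. Sox10 CPM was 0.375 to 1.80 times Olig2 CPM in knockdown tumours, with a median of 1.17, against 0.0444 and 0.00416 times in the controls. Gpr17 was 0.125 to 0.813 times Olig2 in knockdown tumours and 0.0178 and 0 times in controls. Neu4 was 0.125 to 0.472 times Olig2, against 0.00444 and 0 times. None of these 3 ratios overlapped between the groups, including knockdown 3 and 6 in which all of the genes were low. For Neu4 this follows from the levels, since each knockdown tumour had more Neu4 and less Olig2 than either control. In knockdown 6 the ratios rest on 8 counts of Olig2, 3 of Sox10, 1 of Gpr17 and 1 of Neu4. Olig1 kept close to Olig2 everywhere, at 2.38 to 4.26 times its CPM in knockdown tumours and at 2.52 and 2.11 times in controls. These ratios were chosen after the values were seen and were not tested.

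**Figure D3:**
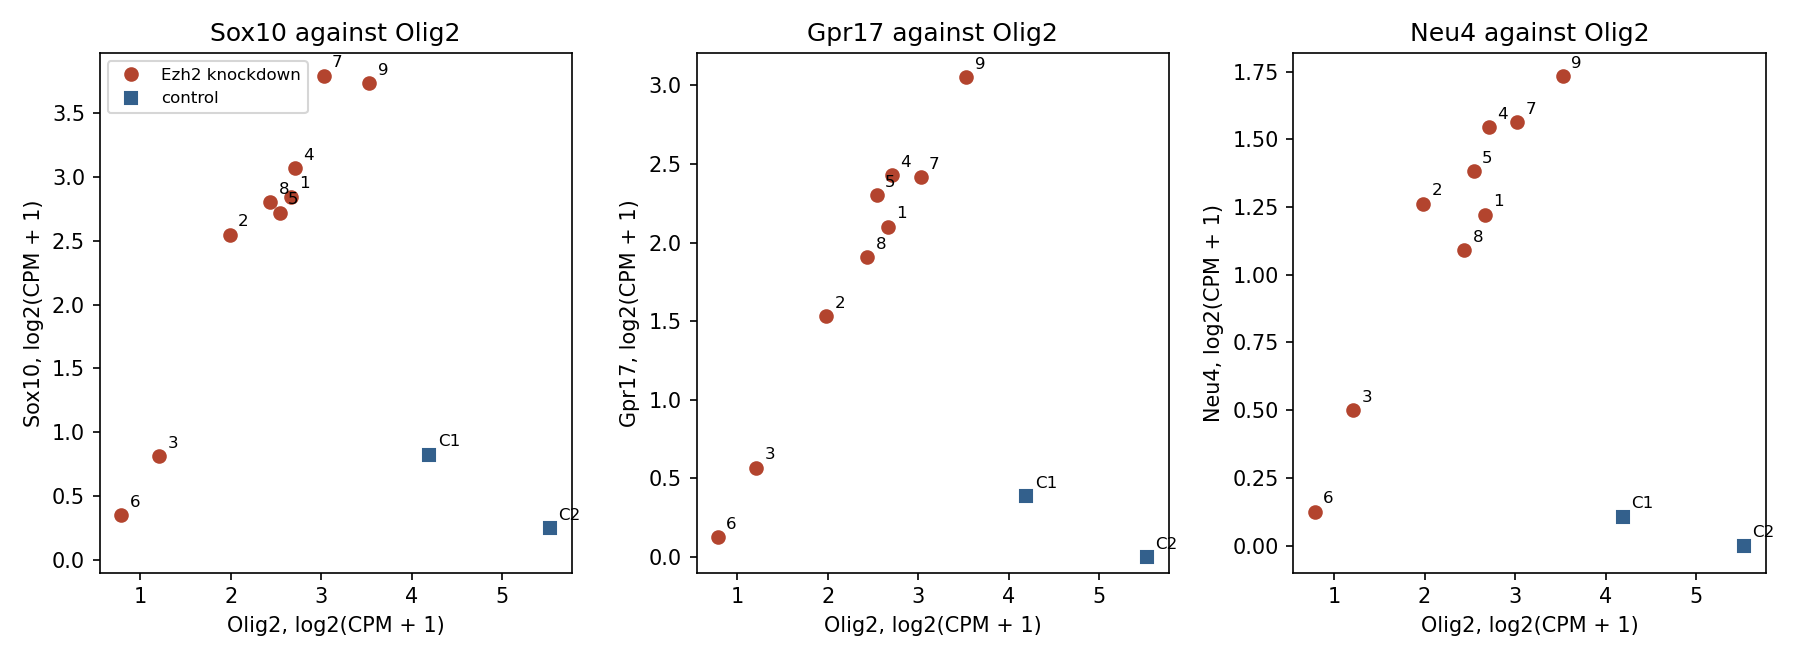
Sox10, Gpr17 and Neu4 against Olig2 in each tumour, both axes in log2(CPM + 1), with knockdown tumours as red circles numbered 1 to 9 and controls as blue squares C1 and C2. The 9 knockdown tumours lie along a rising line, and both controls lie at high Olig2 with the other gene near 0.

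Among the 9 knockdown tumours, 4 members went up and down with Olig2. Pearson's r of log2(CPM + 1) with Olig2 was 0.990 for Gpr17 (exact permutation p = 2.5e-05, adjusted over the 8 relations 9.6e-05), 0.975 for Olig1 (p = 1.1e-05, adjusted 8.8e-05), 0.973 for Sox10 (p = 3.6e-05, adjusted 9.6e-05) and 0.954 for Neu4 (p = 0.00021, adjusted 0.00041). Spearman's rho was 0.967 for the first 3 of these (exact permutation p = 0.00017, adjusted 0.00044) and 0.917 for Neu4 (p = 0.0013, adjusted 0.0026). Without knockdown 3 and 6, the tumours farthest from the median of Olig2, r was 0.958, 0.954, 0.898 and 0.796. Nkx2-2 had r = 0.730 (exact permutation p = 0.026, adjusted 0.041) and rho = 0.867 (p = 0.0045, adjusted 0.0072). With any 1 tumour left out its r was 0.629 to 0.869. It was 0.476 without both knockdown 3 and 6, and so depends in part on them. Lhfpl3 had r = 0.671 (exact permutation p = 0.047, adjusted 0.063) and rho = 0.817 (p = 0.011, adjusted 0.014), with r = 0.403 without them. Cspg4 and Bcas1 had r = -0.163 and -0.0464 (exact permutation p = 0.68 and 0.91, adjusted 0.78 and 0.91; rho 0.167 and -0.150, p = 0.68 and 0.71, adjusted 0.71 and 0.71), and without the pair r = 0.691 and -0.156. The remaining Ezh2 level was not related to the members past adjustment over 9 relations. Cspg4 had the highest r with Ezh2, 0.684 (exact permutation p = 0.035, adjusted 0.24; rho 0.550, p = 0.13, adjusted 0.60), and it turned to -0.152 without knockdown 3 and 9, the tumours with the highest Ezh2. For Bcas1 r was 0.653 (exact permutation p = 0.054, adjusted 0.24; rho 0.717, p = 0.037, adjusted 0.33) and 0.915 without those tumours. For the other 7 members r with Ezh2 lay between -0.163 and 0.0557 (adjusted exact permutation p = 0.99 for each).

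Per kilobase of exon, the order of members differed between the groups. In knockdown tumours Bcas1 led at 16.9 ± 4.71 CPM per kb (SD, n = 9), followed by Olig1 at 6.21 ± 3.52, Cspg4 at 3.81 ± 2.47, Sox10 at 2.05 ± 1.42, Olig2 at 1.88 ± 1.18, Nkx2-2 at 0.902 ± 0.431, Gpr17 at 0.609 ± 0.425 and Neu4 at 0.292 ± 0.157 CPM per kb. In controls Olig1 led at 32.2 ± 16.9 CPM per kb (SD, n = 2), followed by Bcas1 at 14.9 ± 4.96, Olig2 at 12.3 ± 7.79, Cspg4 at 5.36 ± 1.04, Nkx2-2 at 0.648 ± 0.00808, Sox10 at 0.157 ± 0.135, Gpr17 at 0.0296 ± 0.0419 and Neu4 at 0.0083 ± 0.0117 CPM per kb. Only Bcas1 in knockdown tumours, and Cspg4 and Nkx2-2 in controls, stood apart from the next lower gene by more than both SDs together. Exon lengths came from a later annotation (GENCODE M21) matched by gene identifier, in which Lhfpl3 was not matched.

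Of 20 further precursor genes 5 rose, 0 fell and 15 did not pass (edgeR; 25% called, close to the 23.3% of all tested genes; median log2 fold change 0.40, against 0.07 over all tested genes). Pdgfra, the PDGF receptor that defines precursors in most sorting schemes, was 121 ± 41.0 CPM in knockdown and 52.4 ± 13.5 CPM in control tumours (SD, n = 9 and 2; edgeR, adjusted p = 0.024). Vcan, the proteoglycan versican, reached 803 ± 333 CPM in knockdown and 176 ± 90.1 CPM in control tumours (edgeR, adjusted p = 0.0070). Tmem100, a membrane protein, rose 3.73-fold, C1ql1, a secreted C1q-like protein, 3.29-fold, and Tnr, the matrix protein tenascin R, 2.88-fold. Pdgfra, C1ql1 and Tnr are named because the count was small, after their values were seen. Without control 1 only 1 of these 20 genes rose and 1 fell, and without control 2 none rose or fell.

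Of 14 tested partners and cofactors of OLIG2 and SOX10, 1 rose and 2 fell, near the 23.3% of all tested genes (median log2 fold change 0.09). Zeb2, a zinc finger repressor that promotes myelination, had 94.7 ± 6.76 CPM in knockdown tumours (SD, n = 9) and 167 CPM in each control, a log2 fold change of -0.81 ± 0.09 (SE; edgeR, adjusted p = 0.00028). Chd7, a chromatin remodeller, fell 2.43-fold, and Hdac1, a histone deacetylase, rose 1.52-fold (edgeR, adjusted p = 0.017 and 0.0053). Their log2 fold changes were -1.58 and 0.71 without control 2, and -0.91 and 0.50 without control 1. Fewer partners were called without control 1, but not fewer without control 2. A further list was compiled around inhibition of oligodendrocyte differentiation. It also holds pathway regulators, such as Znrf3, that need not be inhibitors themselves. Of its 12 tested genes 4 fell and 0 rose (33.3% called, against 23.3% of all tested genes, median -0.12). Hey1, a Notch target, fell 2.28-fold, Znrf3, a Wnt receptor ligase, 1.71-fold, Id2, which sequesters helix-loop-helix partners, 2.06-fold, and Lingo1, a membrane receptor, 2.37-fold (edgeR, adjusted p = 0.012, 0.0073, 0.012 and 0.027). Hey1 ranged from 15.2 to 25.4 CPM in knockdown tumours, against 72.2 CPM in control 1 and 25.1 CPM in control 2. With control 2 as the sole control, Hey1 did not pass (edgeR, adjusted p = 0.64; log2 fold change -0.24). Likewise, fewer genes of this list were called without control 1, but not fewer without control 2. Without control 2 the log2 fold changes of Hey1 and Znrf3 were -1.76 and -0.95, and without control 1 that of Znrf3 was -0.58. Id2 and Lingo1 are named for the small count, after their values were seen.

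Markers of later stages came next. Of 13 markers of newly formed oligodendrocytes 2 rose and 1 fell (edgeR, median log2 fold change 0.33). These are 23.1% of the list, close to the 23.3% of all tested genes. Myrf, the factor that switches on myelin genes, had 7.78 ± 3.07 CPM in knockdown and 2.66 ± 1.47 CPM in control tumours (SD, n = 9 and 2; edgeR, adjusted p = 0.038). Enpp6, a choline phosphodiesterase, rose 5.34-fold and Cnksr3, a scaffold protein, fell 1.74-fold. Without control 1, 0 of these rose and 0 fell, and without control 2, 0 rose and 1 fell. Of 15 tested markers of myelinating oligodendrocytes 4 rose and 1 fell, a share of 33.3% against 23.3% of all tested genes, with a median of 1.90. Mbp, myelin basic protein, had 175 ± 53.8 CPM in knockdown and 17.2 ± 13.3 CPM in control tumours (SD, n = 9 and 2; edgeR, adjusted p = 0.0015). Aspa, the aspartoacylase of oligodendrocytes, fell, to 0.666 ± 0.3996 CPM in knockdown tumours against 6.80 ± 3.41 CPM in controls (adjusted p = 0.00097). The summed level of the 17 myelinating markers was 371 to 1119 CPM in knockdown tumours, against 246 and 231 CPM in controls. Its upper end is weighted by Apod, which was not called and ran from 25.2 to 658 CPM in knockdown tumours. Of the 17 markers none was at 0 in both controls or in all knockdown tumours. Without control 1 or control 2, 2 of them rose and 1 fell in either case, and the part of mature oligodendrocytes in the Sox10, Gpr17 and Neu4 values was not tested.

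**Figure D4:**
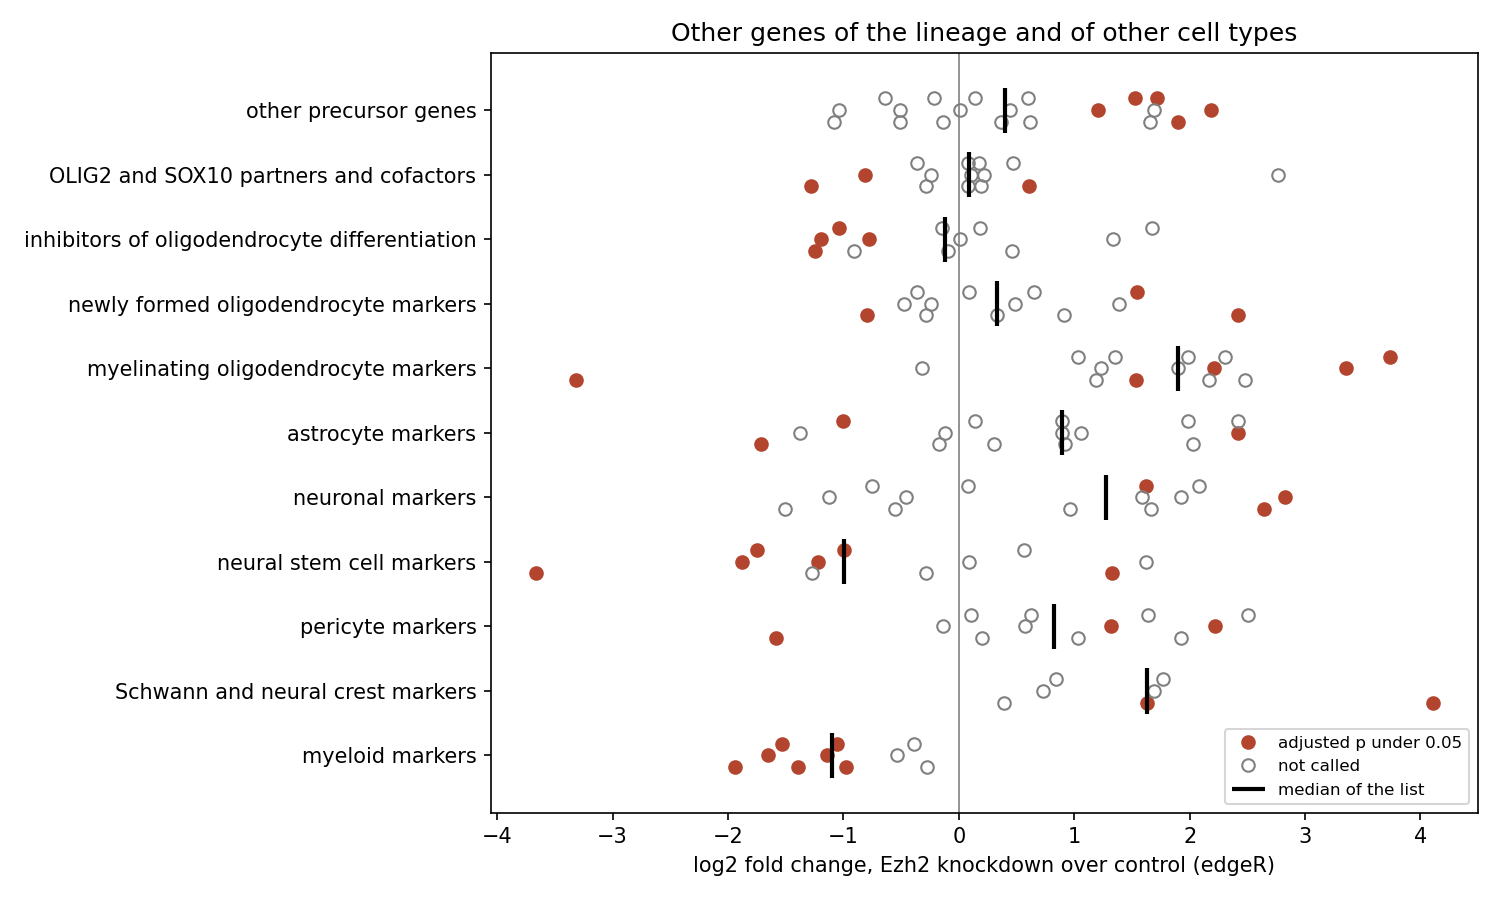
Log2 fold changes, knockdown over control, of the tested genes of each list (filled red where the adjusted p was under 0.05), with black bars at list medians. The myelinating list has the highest median, 1.90, and the myeloid list the lowest, -1.10.

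Markers of other cell types were counted in the same way. Of 14 tested neuronal markers 3 rose and 0 fell (21.4%, against 23.3% of all tested genes; median 1.28), among them Snap25, a synaptic fusion protein, 6.24-fold and Camk2a, a synaptic kinase, 3.08-fold (edgeR, adjusted p = 0.024 and 0.028). Without control 1 or control 2, 0 of them rose and 0 fell. Their summed level was 83.8 to 499 CPM in knockdown tumours, which enclosed the controls at 239 and 171 CPM, with Neurod1 at 0 in both controls. Of 15 astrocyte markers 1, Fam107a, rose 5.35-fold and 2, Slc4a4 and Acsbg1, fell 3.27-fold and 2.01-fold (edgeR, adjusted p = 0.035, 0.0060 and 0.0026). These are 20% of the list, also below the share of all tested genes, and the median log2 fold change was 0.89. Of the astrocyte markers not called, Slc1a3, Aldoc and Mlc1 had log2 fold changes below 0 and all others above 0. Without control 1, 1 rose and 2 fell, and without control 2, 0 rose and 1 fell. The summed astrocyte level was 709 to 1757 CPM in knockdown tumours and 1167 and 1318 CPM in controls. Of 11 tested neural stem cell markers 5 fell and 1 rose (54.5% called, against 23.3% of all tested genes, median -0.997). Nes, the filament nestin, had 397 ± 78.1 CPM in knockdown and 1460 ± 802 CPM in control tumours (SD, n = 9 and 2; edgeR, adjusted p = 0.00057). Sox3, an HMG-box factor of neural progenitors, fell 12.7-fold, while Fut4, which makes the stem cell epitope SSEA1, rose 2.51-fold. Without control 1 or control 2, 4 of them fell and 0 rose in either case. The summed level of the list, 2636 to 4313 CPM in knockdown tumours, lay below both controls, at 8001 and 7006 CPM. Vim was the largest part of it, with a mean of 2526 CPM in knockdown tumours and 4950 and 5136 CPM in controls. Of the genes not called, Prom1, Msi1 and Notch1 had log2 fold changes above 0, and Fabp7 and Pax6 below 0.

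SOX10 is also a factor of Schwann cells and neural crest. Of the 12 genes of that list 7 were tested, of which 2 rose and 0 fell (edgeR, median 1.63). These are 28.6% of those tested, against 23.3% of all tested genes. Cdh19, a cadherin that Schwann cell precursors and oligodendrocytes both express, had 13.3 ± 10.5 CPM in knockdown and 0.786 ± 0.846 CPM in control tumours (SD, n = 9 and 2; edgeR, adjusted p = 0.025), and Egr2, a zinc finger factor, rose 3.09-fold. Without control 1 or control 2, 0 of the list rose. The summed level was 136 to 479 CPM in knockdown tumours and 133 and 111 CPM in controls. Foxd3, Tfap2b, Pax3 and Pmp2 were among the genes too low to be tested, and Pax3 and Pmp2 were at 0 in both controls. Of 10 myeloid markers 7 fell and 0 rose (70% called, against 23.3% of all tested genes, median -1.10). Laptm5, a lysosomal protein of blood cells, fell 3.83-fold and Itgam, an integrin, 2.89-fold (edgeR, adjusted p = 0.00037 and 0.0018). Without control 1 the count that fell was 7, and without control 2 it was 2. The summed myeloid level was 277 to 440 CPM in knockdown tumours, below both controls at 668 and 1136 CPM. The part of any of these cell types in the members' values was not tested. Of the 28 genes that the naming rule took from all lists, 8 kept their call without either control in turn.

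The genes most like Olig2, other than the members, were taken by Pearson's r of log2(CPM + 1) among 11250 protein-coding genes. Over the 9 knockdown tumours these included Kcna6, a potassium channel (r = 0.961), Nfasc, the adhesion protein neurofascin (0.953), Cspg5, the proteoglycan neuroglycan C (0.9495), and Adcyap1r1, a neuropeptide receptor (0.948). None of these 4 passed the test between groups, with edgeR adjusted p between 0.21 for Cspg5 and 0.95 for Nfasc. Over all 11 libraries they were Cadm4, a glial adhesion molecule (0.956), Slc4a4 (0.956), Hepacam, an adhesion protein of glia (0.952), Itgam (0.947) and Dapk1, a kinase (0.941), a choice in which the gap of Olig2 between the groups takes part, so that their lower levels in knockdown tumours are no independent result. The r values are descriptions over libraries that share depth and composition.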

How the data were processed

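RNA was sequenced from 11 tumours after TRIzol extraction and Illumina TruSeq preparation on a HiSeq2000, per the labels' protocols. The deposited table holds whole-number counts of reads per Ensembl gene. Per the submitters' processing notes, TopHat 1.4.0, HTSeq and the build mm9 were used by the authors, without stated settings. Use of strand is not given in the sources used here, so a read where opposite-strand genes overlap may belong to either. Other gene models overlap 4 of the 9 members.

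Groups and replicate numbers came from the sample titles. Nothing in the labels tells if the tumours are separate cultures or injections, so the p-values reflect only how these samples vary, possibly for technical reasons. Replicate libraries had r of log2 CPM between 0.926 and 0.984, and none was a copy of another (smallest chi-square per degree of freedom 8.42).

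The test was run in edgeR 4.0.16 under R 4.3.3 (filterByExpr, TMM factors between 0.919 and 1.077, glmQLFit and glmQLFTest, no covariates, all 11 libraries), adjusted by Benjamini-Hochberg over 16241 genes at 0.05. SE is the log2 fold change divided by the square root of F. The common biological coefficient of variation was 33.9%. Permutation tests were exact and two-sided. Alternatives were RLE factors, no filter, DESeq2 1.42.0, limma-voom 3.58.1, a test against a 1.5-fold change, a replicate block, and leaving out each library. The procedure was tested on simulated data. The members and the 11 lists were chosen with earlier results of these data known. Of the list symbols 153 were found directly, 1 (Myrf) through its gene identifier and 1 (Sox1) not. Named were all members, and from each list up to 2 genes that rose and 2 that fell with the smallest p. The rule also took the 5 non-member genes most like Olig2 in either set of libraries, with an average log2 CPM of at least 2. Some genes that this rule takes are not reported here.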

Additional observations from a re-analysis of the deposited data

Results flagged for a closer look

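Among the 9 knockdown tumours, 2 values of members stood far from the others by Dixon's test, which by chance marks about 1 in 20 groups, and 10 groups, the members and Ezh2, were examined. Cspg4 in knockdown 3 was 119.1 CPM, with a gap to the next tumour of 0.634 of the whole range. Lhfpl3 in knockdown 7 was 6.17 CPM, with a gap of 0.675 of the range.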

How the results depend on the processing

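Direction held for Olig1, Olig2, Sox10, Nkx2-2, Cspg4, Gpr17 and Neu4 under each alternative run. The 2 members called lower stayed 2, except for 0 with the replicate block, 3 without knockdown 3 and 9, and 0 to 3 with 1 library left out. The 2 called higher became 1 with RLE factors, 1 without the filter, 1 against a 1.5-fold change, 0 by limma-voom (1 at an unadjusted p under 0.05), 0 with the replicate block (4 unadjusted, against 3 by edgeR without it) and 0 to 3 with 1 library left out. DESeq2 called 3 higher and 2 lower. Over all genes, 3790 calls became 686 with the replicate block, 1159 against a 1.5-fold change, and 1290 to 4269 with 1 library left out. The labels share only numbers 1 and 2 between the groups and do not pair them. Same-numbered libraries correlated at -0.142 and 0.0165 in their deviations, and the block leaves 1 residual degree of freedom.

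With 1 library left out, log2 fold changes changed sign for Bcas1 (-0.13 to 0.57), Lhfpl3 (-1.77 to 1.20), Nfasc (-0.47 to 1.02) and Cspg5 (-2.41 to 0.81). Nfasc was also -0.22 by limma-voom and -0.17 without knockdown 3 and 9, a choice made after seeing the data, as was leaving out knockdown 3 and 6. Both choices gave 3 higher members. With 1 library left out, the sign also changed of r with Ezh2 for Olig1 (-0.290 to 0.250), Olig2 (-0.418 to 0.346), Sox10 (-0.480 to 0.192), Nkx2-2 (-0.247 to 0.570), Gpr17 (-0.396 to 0.350), Neu4 (-0.338 to 0.303) and Lhfpl3 (-0.312 to 0.380), and r with Olig2 for Cspg4 (-0.398 to 0.514) and Bcas1 (-0.267 to 0.0820). The cause was not tested. Of the other values, 1245 kept direction and call, 122 lost and 8 gained a call and 87 counts or ratios moved. Depth limits Gpr17 and Neu4, with 0 to 4 counts in a control.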
